A study of Mus musculus with 20 samples.

Results

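The caspases are cysteine proteases that cut their substrates after aspartate and carry out inflammatory and apoptotic cell death. Described here are 7 of them, Casp1, Casp2, Casp4, Casp6, Casp8, Casp9 and Casp12, taken by gene symbol from the 37681 gene rows of each count table. All 7 were among the 15578 genes tested. Male C57/BL6 mice aged 12 weeks (C57/B6J and wild-type in the study's methods) received IL-1β at 20 µg/kg (ILB_9577, ILB_9578, ILB_9579, ILB_9582 and ILB_9583, 5 mice) or saline (UNT_9574, UNT_9575, UNT_9576, UNT_9580 and UNT_9584, 5 mice called untreated), and whole liver was taken 4 hours later. Values by mouse follow this order. RNA from each of the 10 livers gave 1 Illumina and 1 Ion Torrent library, and 3 alignment strategies (STAR, GSNAP, and STAR followed by Bowtie2) made 6 count tables of 10 libraries each. The Illumina data aligned with STAR are the main table, and the 5 other tables, made from the same mice, serve as a check and are not independent evidence.

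Caspases are made as inactive precursors. The inflammatory caspases are activated on inflammasomes, where Casp1 matures the precursors of IL-1β and IL-18 and, like Casp4, the sensor of bacterial lipopolysaccharide in the cytosol, cuts gasdermin D to open pores in the membrane. In apoptosis, initiator caspases are activated on platforms of their own (Casp8 below death receptors, Casp9 on the Apaf1 apoptosome, Casp2 on the PIDDosome) and pass the signal to executioners. In the liver, hepatocytes are known for dying readily through Fas and Casp8.

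Total counts per library lay between 10568530 and 12008799 in the Illumina tables and between 12199528 and 16439683 in the Ion Torrent tables. The labelled tissue was checked with 8 hepatocyte markers, all of which were tested, and Alb alone had 505223 to 966350 reads per Illumina STAR library. The paired libraries of untreated mouse UNT_9584 stood apart. Their deviations from the group means correlated at 0.25, against 0.59 to 0.74 in the 9 other mice. The correlation does not show which of its libraries departs. For this sample the study reports Ion Torrent read lengths that were shifted from those of the others. Ion Torrent values without this mouse are given below for Casp9, Casp1, Casp12 and Casp8, as are the platform terms without it. In bulk liver, fewer cells of a type and less RNA per cell cannot be told apart.

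Casp1 (ENSMUSG00000025888, chr9:5298517-5307265), Casp4 (ENSMUSG00000033538, chr9:5308828-5336783) and Casp12 (ENSMUSG00000025887, chr9:5345476-5373032) lie side by side on the plus strand of chromosome 9 in mm9, within 74516 bases. Casp8 (ENSMUSG00000026029) is at chr1:58852218-58904347, Casp9 (ENSMUSG00000028914) at chr4:141349527-141371891, Casp2 (ENSMUSG00000029863) at chr6:42214984-42232507 and Casp6 (ENSMUSG00000027997) at chr3:129604343-129617021, all on the plus strand and all annotated as protein coding. Each carries the codons of the active-site motif around the catalytic cysteine. They are shown because the motif defines the family and because reads can be split between members where these are alike in sequence. The 15 bases of the motif codons are in capitals, with 15 coding bases on each side, from the mouse transcripts of the Ensembl annotation on NCBIM37 (the mm9 assembly), 5′ to 3′.
Casp1: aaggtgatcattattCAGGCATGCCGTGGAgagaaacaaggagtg
Casp4: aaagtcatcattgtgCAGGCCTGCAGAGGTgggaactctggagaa
Casp12: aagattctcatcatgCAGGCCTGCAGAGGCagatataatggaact
Casp8: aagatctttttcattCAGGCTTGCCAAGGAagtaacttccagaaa
Casp9: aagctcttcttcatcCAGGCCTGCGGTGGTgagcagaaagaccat
Casp2: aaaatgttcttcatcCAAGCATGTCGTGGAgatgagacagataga
Casp6: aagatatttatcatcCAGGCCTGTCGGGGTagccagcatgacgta
In 6 of the 7 genes the stretch shown is split by an intron, so that its bases come from neighbouring exons. Casp8 has it within exon 8 (chr1:58901442-58901486). In Casp9 it runs from exon 6 to exon 7, between chr4:141363147 and chr4:141367467, and in Casp4 from exon 5 to exon 6, between chr9:5324928 and chr9:5327189. Casp4 and Casp12 shared 14 of the 15 bases in capitals but 29 of all 45 bases shown. Whole transcripts were compared by BLAST with the same strand of protein-coding transcripts only, so pseudogenes and noncoding genes could not be found. The best match of Casp4 to another gene was Casp12, at 68.9% identity over 425 bases, and that of Casp1 was Casp4, at 67% over 415 bases. Casp2 and Casp6 had no match to another protein-coding gene under the E-value limit used. The best matches of Casp8 (Kif5b, 136 bases) and Casp9 (Rgs9, 186 bases) were short and not to a caspase. No exon of 6 of the genes overlapped an exon of another gene. Casp9 shared 94 exon bases with Cela2a on the opposite strand, which had 0 to 7 reads in the Illumina STAR libraries, against 88 to 350 for Casp9.

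Levels were first set side by side per length, as CPM (counts per 1000000 reads of the TMM-scaled library) divided by the kilobases of merged exon. In untreated mice in the Illumina STAR data, Casp8 was the highest at 13.8 ± 1.90 (SD, n = 5), followed by Casp6 at 8.58 ± 1.74 and Casp9 at 5.43 ± 0.501. The other 4 lay far lower. Casp1 was at 0.998 ± 0.0992, Casp2 at 0.824 ± 0.0570, Casp12 at 0.542 ± 0.126 and Casp4 at 0.352 ± 0.125. Of the neighbours in this order, Casp1 and Casp2 overlapped between mice, as did Casp12 and Casp4, and the other neighbouring pairs did not. In treated mice the first 3 places were held by the same genes, with Casp8 at 14.5 ± 1.82, Casp6 at 6.21 ± 1.47 and Casp9 at 1.98 ± 0.253. Casp4, the last in the untreated mice, held the fifth place after IL-1β at 0.776 ± 0.149, overlapping its neighbours Casp2 (0.872 ± 0.0988) and Casp1 (0.696 ± 0.121). Casp12 was at 0.455 ± 0.193. In the Ion Torrent STAR data of untreated mice Casp6 (12.8 ± 3.07) stood before Casp8 (12.2 ± 1.14), with overlapping mice, and the order of the other 5 was that of the Illumina data. The lengths used matter to the order. With the length of the longest coding transcript in place of the merged exons, Casp2 took the fourth place in the untreated Illumina data at 1.63 ± 0.113, before Casp1, and the untreated mice overlapped for Casp8 (from 12.0) and Casp6 (up to 12.03) and for Casp6 (from 7.31) and Casp9 (up to 7.63). By that length Casp4 stood before Casp12 in untreated mice (0.909 ± 0.323 against 0.790 ± 0.183) and took the fourth place in treated mice at 2.01 ± 0.386, overlapping Casp9 (2.64 ± 0.337).

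**Figure D1:**
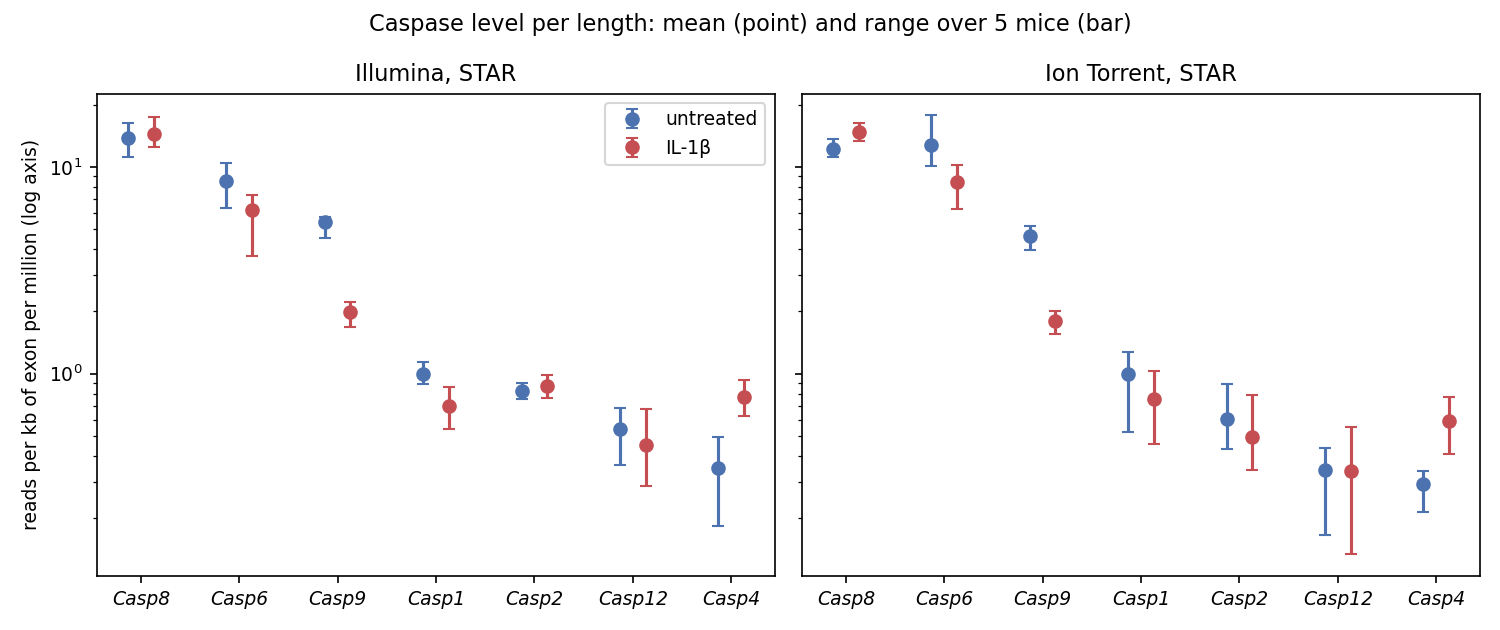
Level of each caspase as CPM per kilobase of exon (log axis), Illumina STAR on the left and Ion Torrent STAR on the right. Points are means and bars the range over 5 mice, blue untreated and red IL-1β. Casp8, Casp6 and Casp9 lie above the other 4 in both panels, and Casp9 is lower and Casp4 higher in the treated mice.

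With IL-1β, Casp9 was lower and Casp4 higher, and these were the only 2 of the 7 caspases called as DEGs in the Illumina STAR data (edgeR's quasi-likelihood test, adjusted p below 0.05 over 15578 genes). Of all genes tested, 45.7% were called, 22.7% higher and 22.9% lower, so that 2 of 7 is no more than the share seen over all genes. Casp9 and Casp4 were also the only members called in the same direction in all 6 tables, which 34.9% of all genes tested were. The median log2 fold change of the 7 was -0.25, against 0.00 over all genes tested. Of the other tables, Illumina GSNAP called 3 members (47.5% of all genes), Illumina STAR + Bowtie2 4 (47.4%), Ion Torrent STAR 4 (42.1%), Ion Torrent GSNAP 3 (46.4%) and Ion Torrent STAR + Bowtie2 3 (46.7%).

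**Figure D2:**
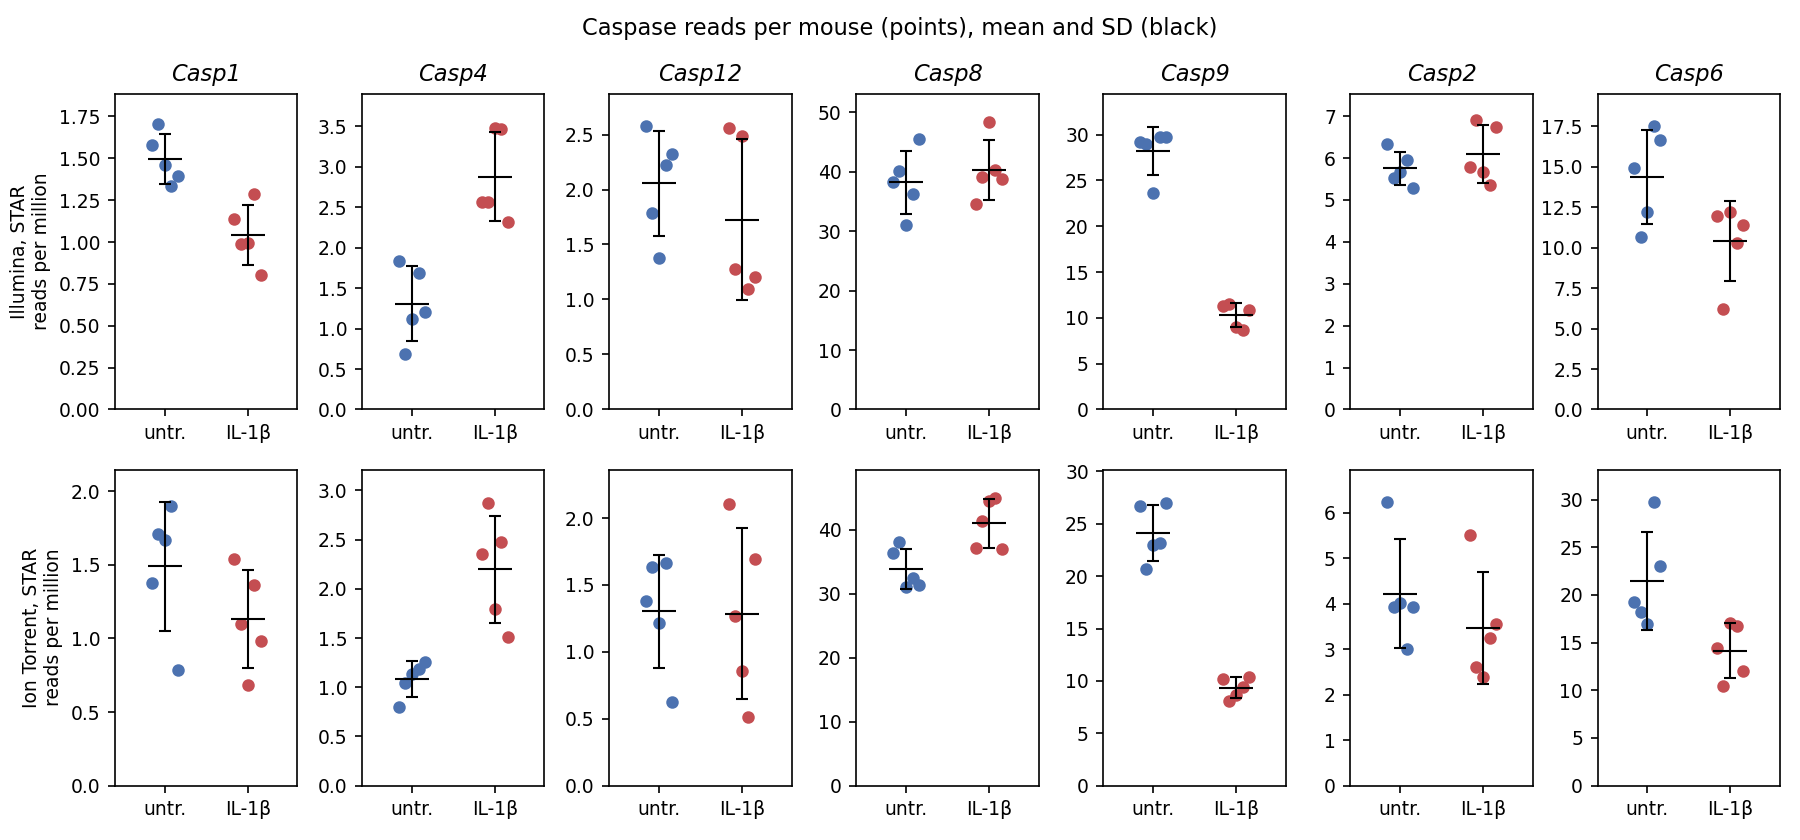
CPM after TMM scaling for each caspase, 1 point per mouse, with the mean and SD in black, Illumina STAR in the upper and Ion Torrent STAR in the lower row, each panel with its own axis from 0. The groups are apart for Casp9 and Casp4 in both rows and for Casp1 in the upper row only.

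Casp9, the initiator activated on the apoptosome, showed the largest difference of the family. Its deposited reads in the Illumina STAR data were 119, 117, 91, 88 and 108 in the treated mice and 350, 340, 275, 334 and 320 in the untreated mice. Every treated mouse was far below every untreated one. After scaling these were 10.3 ± 1.31 and 28.2 ± 2.60 CPM (SD, n = 5 each), and Casp9 fell by 1.45 on the log2 scale (SE 0.12, 95% interval -1.71 to -1.20, edgeR adjusted p = 1.88e-07), a level 2.74 times higher in untreated than in treated mice. In the Ion Torrent STAR data the reads were 126, 96, 101, 111 and 117 against 368, 279, 303, 292 and 344. The groups were again fully apart. Over the 6 tables the log2 fold change was -1.49 to -1.32 and the largest adjusted p 2.70e-07. Leaving out any 1 mouse left Casp9 called in every table, and without mouse UNT_9584 it fell by 1.32 in the Ion Torrent STAR data (adjusted p = 1.38e-06).

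Casp4, the caspase of the noncanonical inflammasome, moved the other way from a low level. In the Illumina STAR data it had 27, 26, 35, 35 and 23 reads in the treated mice and 22, 8, 13, 19 and 13 in the untreated mice. The lowest treated mouse was 1 read above the highest untreated mouse. On the CPM scale the means were 2.88 ± 0.553 and 1.31 ± 0.463, with no overlap, and Casp4 was 2.203-fold higher after IL-1β (log2 fold change 1.14, SE 0.26, 95% interval 0.59 to 1.69, edgeR adjusted p = 0.00207). The Ion Torrent STAR libraries held 29, 34, 21, 29 and 17 reads against 11, 14, 15, 15 and 16. These groups did not overlap either, by 1 read. In the Ion Torrent GSNAP data the deposited reads did overlap, with 17 in ILB_9583 and up to 19 in untreated mice. They met at 24 reads in Ion Torrent STAR + Bowtie2, and on the CPM scale the groups stayed apart in both. Over the 6 tables the log2 fold change was 1.03 to 1.33, with adjusted p of 0.000614 to 0.00513. Casp4 remained called in every table without any 1 mouse, at 0.97 to 1.29 in the main one.

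Because Casp9 and Casp4 carry the differences, the 250 bases before their RefSeq transcription start are given (GRCm38.p6, plus strand, a build other than that of the counts). The Casp9 stretch is chr4:141793362-141793611 and the Casp4 stretch, for the more upstream of its 2 listed starts, chr9:5308599-5308848.
Casp9: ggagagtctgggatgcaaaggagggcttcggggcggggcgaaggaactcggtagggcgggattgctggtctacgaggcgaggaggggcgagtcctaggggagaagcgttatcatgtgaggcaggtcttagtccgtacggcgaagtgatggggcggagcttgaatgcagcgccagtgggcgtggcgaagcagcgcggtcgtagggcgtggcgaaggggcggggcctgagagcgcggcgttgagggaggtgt
Casp4: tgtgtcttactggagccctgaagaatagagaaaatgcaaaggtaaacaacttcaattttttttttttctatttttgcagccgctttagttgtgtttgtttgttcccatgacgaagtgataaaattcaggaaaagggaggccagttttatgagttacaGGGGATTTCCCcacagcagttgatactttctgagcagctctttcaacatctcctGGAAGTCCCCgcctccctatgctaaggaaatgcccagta
The Casp9 stretch had 66.0% G and C and the Casp4 stretch 41.6%, against a median of 52.4% over all 32851 promoters listed. Both strands of the stretches of all 7 genes were searched for GGGA and TTCC with any 2 bases between (NF-kB), TTC and GAA with any 3 between (STAT), GAAA repeated with any 2 between (interferon response element) and TTGC and AA with any 2 between (C/EBP). As the NF-kB letters are narrower than the usual kB consensus, that consensus was searched too, a choice made after the data were seen. Capitals mark all matches. The Casp4 stretch held the kB consensus at -93 to -83, where overlapping matches lie on both strands, and at -39 to -30 on the minus strand, and held none of the other letters. The Casp9 stretch held no match, which says only that these letters are absent from this window. Of the 5 other genes only Casp12 held any, TTCTGGGAA at -102 to -94 and again at -36 to -28, and the C/EBP letters on the minus strand at -80 to -73. Of all promoters, 1.21% held the narrower NF-kB letters, 7.25% the kB consensus, 7.02% the STAT letters, 2.98% the interferon response letters and 9.56% the C/EBP letters.

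Casp1, which matures the precursor of IL-1β, stood lower in the treated mice without passing the test in the main table. Its Illumina STAR reads were 12, 10, 10, 13 and 8 in the treated and 19, 20, 17, 15 and 15 in the untreated mice. No treated mouse reached the lowest untreated mouse. Casp1 is thereby the third of 3 members, beside Casp9 and Casp4, whose groups did not overlap, where 33.9% of all genes tested did not. The log2 fold change was -0.52 (SE 0.23, 95% interval -1.002 to -0.038) with an edgeR adjusted p of 0.0745. Casp1 was called lower in the Illumina GSNAP data (-0.80, adjusted p = 0.00529) and in Illumina STAR + Bowtie2 (-0.67, adjusted p = 0.0306), where the groups did not overlap either. The Ion Torrent STAR reads were 19, 13, 8, 16 and 11 against 19, 23, 22, 24 and 10, and the low untreated value is that of mouse UNT_9584. There the groups overlapped, and none of the 3 Ion Torrent tables called Casp1 (log2 fold change -0.52 to -0.37, adjusted p 0.283 to 0.352). Without mouse UNT_9584 the values were -0.55 in Ion Torrent STAR (adjusted p = 0.172), -0.56 in GSNAP (adjusted p = 0.0932) and -0.73 in STAR + Bowtie2 (adjusted p = 0.0850), again with no call, and without UNT_9580 they were -0.27, -0.23 and -0.33. The call in Illumina STAR + Bowtie2 was lost without ILB_9577, ILB_9583, UNT_9574 or UNT_9575, with adjusted p of up to 0.0968.

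Casp12, the third gene of the chromosome 9 cluster, had 27, 13, 25, 11 and 12 reads in treated and 31, 21, 16, 25 and 25 in untreated mice in the Illumina STAR data. Treated mice ILB_9577 and ILB_9579 lay within the untreated group and the other 3 below it. The log2 fold change was -0.25 (95% interval -0.86 to 0.36, adjusted p = 0.521). This interval takes in the values fitted for Casp1 and Casp6 as well as 0. Over the 6 tables it went from -0.25 to 0.15, and no table called it. Without UNT_9584 the Ion Torrent values were -0.19 (STAR), 0.088 (GSNAP) and -0.070 (STAR + Bowtie2), with no call. Without ILB_9577 they were -0.28, 0.034 and -0.092, and without ILB_9582 they were 0.20, 0.25 and 0.18. Of the 3 neighbours, Casp4 alone was called in the main table.

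Casp8, the initiator recruited by death receptors and the most abundant of the 7 per length in the Illumina STAR data, had 364, 397, 487, 406 and 386 reads in treated and 459, 471, 361, 408 and 489 in untreated mice in the Illumina STAR data. The groups covered nearly the same range. Its log2 fold change was 0.07 (SE 0.12, 95% interval -0.18 to 0.33, edgeR adjusted p = 0.658), and the direction turned to -0.05 when libraries were not TMM scaled. In the Ion Torrent STAR data, with 458, 490, 522, 528 and 415 reads against 502, 513, 410, 409 and 399, Casp8 was called higher by 0.28 (SE 0.11, adjusted p = 0.0477). That table called 4 of the 7 caspases (Casp4 and Casp8 higher, Casp6 and Casp9 lower). This Casp8 call lay close to the threshold. It was lost without any of 6 mice, UNT_9584 among them (adjusted p = 0.109), and the other Ion Torrent tables gave adjusted p of 0.0595 and 0.0868. In the GSNAP table Casp8 was called without UNT_9575 (0.29, adjusted p = 0.0346).

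Casp6, an executioner that cuts nuclear lamins, had 126, 63, 123, 104 and 113 reads in the treated mice and 179, 125, 142, 197 and 179 in the untreated mice in the Illumina STAR data. Treated mouse ILB_9578 was the lowest and the groups overlapped by 1 read, at 126 in mouse ILB_9577 and 125 in mouse UNT_9575. On the CPM scale the overlap was wider. There ILB_9577 (11.95), ILB_9579 (12.21) and ILB_9583 (11.38) lay above UNT_9575 (10.64), and ILB_9579 also lay above UNT_9576 (12.19). The log2 fold change was -0.46 (SE 0.19, 95% interval -0.86 to -0.07), with an edgeR adjusted p of 0.0543, just outside the threshold. All 3 Ion Torrent tables called Casp6 lower. With 178, 124, 200, 196 and 135 reads against 266, 246, 223, 375 and 294 in the STAR table, it fell by 0.60 (SE 0.17, adjusted p = 0.00950), and the other Ion Torrent values were -0.55 (adjusted p = 0.00979) and -0.54 (adjusted p = 0.0166). The value of 0.0166 became 0.0505 without mouse UNT_9580. In the Illumina tables it was called with STAR + Bowtie2 (-0.49, adjusted p = 0.0418), though in 3 of 10 fits with 1 mouse left out only, and not with GSNAP (-0.43, adjusted p = 0.0600). The 6 estimates thus lay between -0.60 and -0.43, on both sides of the threshold.

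Casp2, the initiator of the PIDDosome, had 61, 70, 57, 54 and 67 reads in treated and 76, 65, 66, 67 and 57 in untreated mice in the Illumina STAR data. These ranges overlapped, and the log2 fold change was 0.08 (SE 0.14, 95% interval -0.22 to 0.38, adjusted p = 0.693). Without TMM scaling the value was -0.05. The Ion Torrent STAR reads were 68, 31, 28, 38 and 40 against 86, 53, 53, 38 and 50, and the 3 Ion Torrent values were -0.29 to -0.12, against 0.03 to 0.08 in the Illumina tables. No table called Casp2. Single mice moved the Ion Torrent values. Without UNT_9574 they were -0.10 (STAR), 0.023 (GSNAP) and -0.029 (STAR + Bowtie2), and without ILB_9577 they were -0.52, -0.21 and -0.33.

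**Figure D3:**
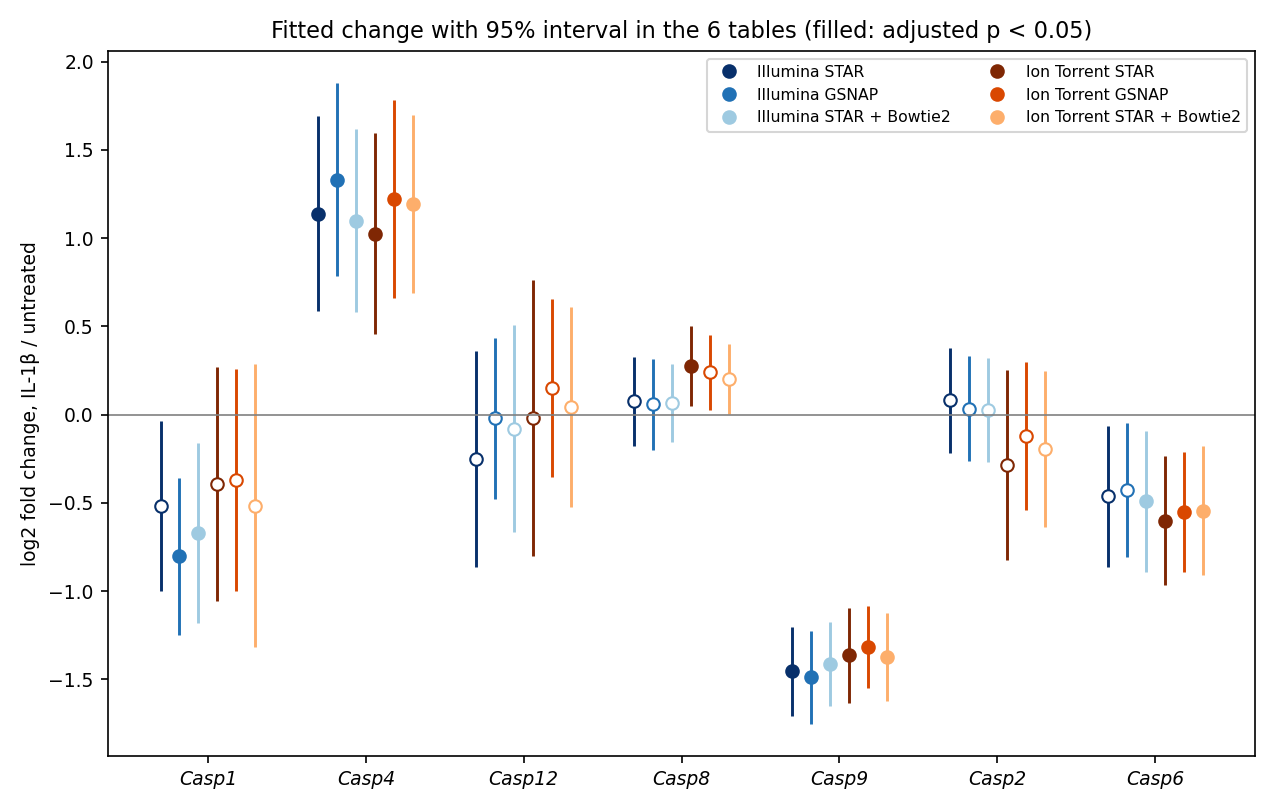
Log2 fold change of IL-1β over untreated for each caspase in the 6 tables, with 95% intervals from edgeR, blue Illumina and orange to brown Ion Torrent. Filled points have an adjusted p below 0.05. All 6 points are filled for Casp4 (1.03 to 1.33) and Casp9 (-1.49 to -1.32), some for Casp1, Casp6 and Casp8, and none for Casp2 and Casp12.

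Whether the response differed between the platforms was tested with a platform-by-treatment term in the 20 STAR libraries, with the mouse as a block. None of the 7 caspases passed, where 0.00642% of all genes tested (1 gene) did. For Casp8 the Ion Torrent response was larger by 0.21 (95% interval -0.01 to 0.43, edgeR adjusted p = 0.702), the smallest adjusted p of the 7. Without 1 mouse each, this term ran from 0.12 (without UNT_9584, 95% interval -0.06 to 0.31) to 0.29, its interval lay above 0 in 5 of the 10 fits, and the adjusted p was 0.528 to 0.971. For Casp2 the difference was -0.36 (95% interval -0.83 to 0.12, adjusted p = 0.768), so that its opposite directions on the platforms were not shown to differ. Without ILB_9577 it was -0.59, with an interval below 0 (-1.06 to -0.12) and an adjusted p of 0.798. Without UNT_9574 it was -0.19, with an interval on both sides of 0 (-0.70 to 0.32). The term of Casp9 (0.11, 95% interval -0.17 to 0.39) was small beside its treatment effect. That of Casp4 was -0.11, but its 95% interval (-0.82 to 0.59) was wide beside its Illumina STAR log2 fold change of 1.14. Casp1 (0.15, -0.60 to 0.89), Casp6 (-0.11, -0.41 to 0.18) and Casp12 (0.24, -0.56 to 1.04) had intervals on both sides of 0 too. Single mice moved these terms both ways. For Casp1 they ran from 0.0085 (without UNT_9584) to 0.31 (without ILB_9579), for Casp4 from -0.34 (without UNT_9574) to 0.084 (without UNT_9575), and for Casp12 from 0.012 (without ILB_9583) to 0.56 (without ILB_9579). Those of Casp6 ran from -0.18 (without ILB_9582) to -0.026 (without ILB_9583) and those of Casp9 from 0.046 (without ILB_9582) to 0.20 (without ILB_9578). Without UNT_9584 Casp2 was at -0.35, Casp4 at -0.027, Casp6 at -0.14, Casp9 at 0.13 and Casp12 at 0.017.

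The partners of the caspases were counted in lists by role in the Illumina STAR data. They were chosen with earlier results of these data known and are described beside the share of all genes called, 45.7%. In the list of inflammasomes and pyroptosis, 19 of 22 genes were tested, 4 called higher and 6 lower, with a median log2 fold change of -0.12. Gsdmd, the pore protein that Casp1 and Casp4 cut, had 613 ± 36.5 reads in treated and 267 ± 13.8 in untreated mice (log2 fold change 1.37, adjusted p = 3.32e-08). It rose like Casp4. Nlrp12, a sensor of the same family as Nlrp3, rose by 1.42 (adjusted p = 1.82e-06), and Txnip, a thioredoxin inhibitor that binds Nlrp3, fell by 1.74 (adjusted p = 1.21e-05). Il18, a substrate of Casp1, fell by 0.86 (adjusted p = 0.00266) but was not called in the Ion Torrent STAR data (-0.28, adjusted p = 0.289). The other direct partners did not pass: Il1b at 0.63 (adjusted p = 0.0936), the adaptor Pycard at 0.56 (adjusted p = 0.139) and the sensor Nlrp3 at -0.10 (adjusted p = 0.865), with means of 7.2 to 19.2 reads.

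Among death receptors and necroptosis genes, 12 of 14 were tested, 7 called higher and 2 lower, with a median of 0.79. Casp8 itself was not called. Tnfrsf1a, the main TNF receptor, had 2679 ± 111 reads in treated and 735 ± 107 in untreated mice (log2 fold change 2.05, adjusted p = 1.12e-09). Fas, the receptor that recruits Casp8, rose by 1.86 (adjusted p = 2.80e-06). Ripk1, a kinase of the same complexes, rose by 0.92 (adjusted p = 6.92e-06), and Cflar, an inactive relative that holds Casp8 in check, by 0.81 (adjusted p = 7.74e-05). Tnfsf10, the ligand TRAIL, fell by 1.95 (adjusted p = 6.65e-06). Fadd, the adaptor between receptor and Casp8, was at -0.13 (adjusted p = 0.631).

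Of 9 genes of the mitochondrial pathway and apoptosome, all tested, 4 were called higher and 1 lower, with a median of 0.11. Apaf1, the scaffold that activates Casp9, rose while Casp9 fell. It had 111 ± 31.2 reads in treated and 36.8 ± 4.66 in untreated mice (log2 fold change 1.78, adjusted p = 6.93e-06), and 1.85 in the Ion Torrent STAR data (adjusted p = 6.68e-05). Bax, a pore-forming protein of the mitochondrial membrane, rose by 0.87 (adjusted p = 4.18e-05). Bak1, its relative, rose by 0.41 (adjusted p = 0.0349) and was not called in the Ion Torrent STAR data (0.32, adjusted p = 0.124). Cycs, which encodes cytochrome c, was at -0.16 (adjusted p = 0.236).

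Of the 6 tested of 7 inhibitors of apoptosis, 2 were called higher and 2 lower (median -0.09). Xiap, which binds Casp9 directly, had 792 ± 143 reads in treated and 1591 ± 130 in untreated mice and fell by 0.83 (adjusted p = 4.17e-05). Birc2 rose by 0.75 (adjusted p = 0.000420). Birc5 fell by 1.70 (adjusted p = 0.000803), with 3 to 11 reads in treated mice, and was not called in the Ion Torrent STAR data (-0.95, adjusted p = 0.0586). For the PIDDosome, Cradd, the adaptor of Casp2, fell by 0.57 (adjusted p = 0.00514) and was not called in the Ion Torrent STAR data (-0.49, adjusted p = 0.0567), and Lrdd, the file's symbol for Pidd1, was not called. Of 7 caspase substrates, 2 were called higher and 3 lower (median -0.21). Lmna, whose lamin A is cut by Casp6, rose by 0.85 (adjusted p = 0.00120), while the other lamin gene listed, Lmnb1, fell by 0.84 (adjusted p = 0.00287). Gas2, which encodes a protein of the actin skeleton, fell by 0.83 (adjusted p = 0.00154).

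**Figure D4:**
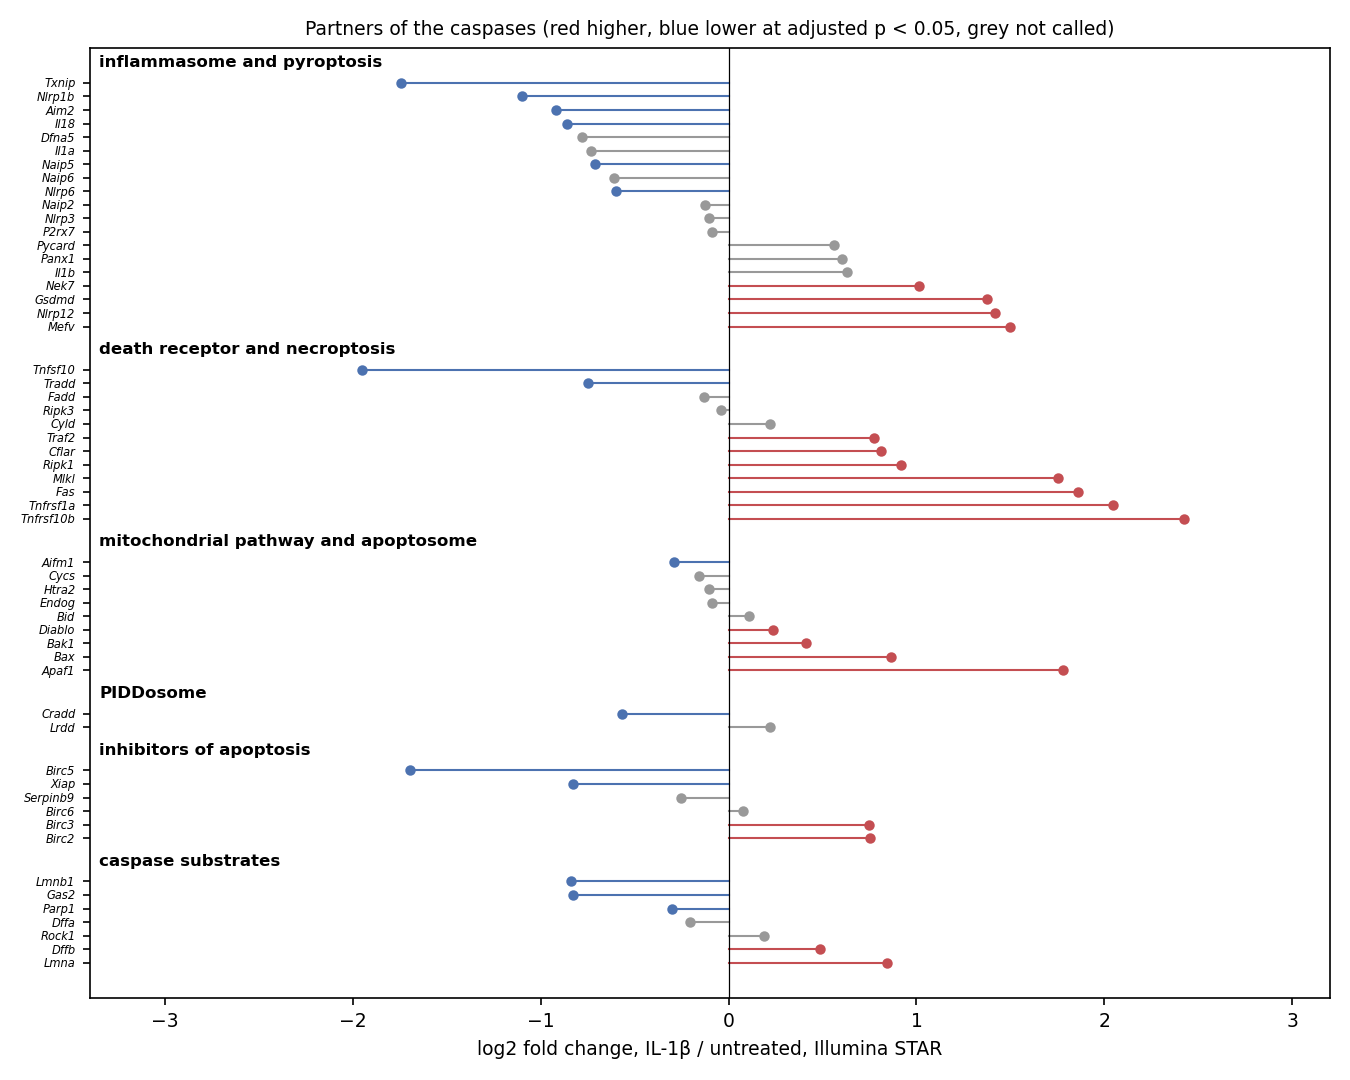
Log2 fold change of IL-1β over untreated in the Illumina STAR data for the tested genes of 6 lists of caspase partners, 1 line per gene. Red and blue mark genes called higher and lower, grey genes not called. Apaf1 (1.78), Gsdmd (1.37) and the receptors Fas (1.86) and Tnfrsf1a (2.05) lie to the right, and Xiap (-0.83) and Txnip (-1.74) to the left.

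Markers of 5 cell types were set beside these differences. Of 10 neutrophil markers, 8 passed the filter on low reads and were called higher. Of these, Cxcr2, Mmp8, Retnlg and Ngp had at most 3 reads in any untreated Illumina STAR library and reached the filter through the treated mice, so that nothing is read from the count (22.7% of all genes tested were called higher). S100a9 was at 370 ± 122 reads in treated and 10.6 ± 5.68 in untreated mice. The summed level of the list was 54.1 to 123 CPM in treated and 2.31 to 6.91 in untreated mice, and the defining markers Ly6g, Camp and Ngp were at 0 in all untreated mice. The other lists stand beside 45.7% of all genes tested called in the Illumina STAR data, 22.7% higher and 22.9% lower. Of 8 hepatocyte markers, 2 were called higher and 4 lower, with summed levels of 69932 to 84439 against 93060 to 112887 CPM. Of 9 markers of Kupffer cells and macrophages, 2 were called higher and 3 lower (75.7 to 176 against 135 to 234 CPM), with Clec4f lower by 0.60 (adjusted p = 0.0120). Of 7 endothelial markers, 2 were called higher and 3 lower (91.6 to 150 against 122 to 186 CPM), with Stab2 at -0.30 (adjusted p = 0.201). Of 5 tested of 9 lymphocyte markers, none was called higher and 1 lower (1.01 to 2.58 against 1.96 to 4.83 CPM), with 2 to 3 lower in the other tables. In the Illumina STAR data the summed levels of the 2 groups overlapped for the Kupffer cell and macrophage, endothelial and lymphocyte lists. They did not for the neutrophil and hepatocyte lists. Alb made up a large part of the hepatocyte sum, so this separation need not hold for each marker of that list. Lymphocyte sums were apart in Ion Torrent GSNAP (2.04 to 2.70 CPM in treated and 3.10 to 5.80 in untreated mice). The same held in Ion Torrent STAR + Bowtie2 (2.05 to 2.42 against 3.05 to 5.73 CPM). The part of these cell types in the differences of Casp9, Casp4 and the other caspases was not tested.

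For the 2 caspases called in every table, the genes whose log2 CPM followed theirs most closely over the 10 mice were taken from 10543 genes with a mean of at least 20 reads in both STAR tables, by the lower of the Illumina and Ion Torrent Pearson correlations. For Casp9 they were Lrp4 (0.986), Dixdc1 (0.984) and Hfe2 (0.984), all lower in the treated mice. Those of Casp4 were Slc4a4 (0.893), Sat1 (0.893) and Nab1 (0.885), all higher. The 10 mice fall into 2 treatment groups and the paired libraries share their RNA. Group means were not removed, so genes split by treatment in the same way as the caspase come first. The shared directions follow from this choice, and no co-regulation is read from them.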

How the data were processed

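RNA from the livers of 10 mice was sequenced on both platforms. The authors aligned reads to mm9 with STAR 2.5.1b, GSNAP or STAR followed by Bowtie2 2.2.9 (versions from the submitters' processing notes), removed rRNA and mitochondrial reads, drew equal numbers of gene-mapping reads from all libraries of a table and deposited whole-number counts per gene. Such a draw lowers the counts of all genes in the larger libraries, and low counts leave more error for the rarer caspases. How much the draw itself added was not tested. Whether the counts use strand is not given in the sources used here.

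Each table was fitted whole with edgeR 4.0.16 (quasi-likelihood test, TMM, two-sided, Benjamini-Hochberg, adjusted p below 0.05; R 4.3.3). A gene was tested if, in 1 or more of the 6 tables, 5 libraries of the 10 held 5 reads or more. Alternatives were the study's two-sided Mann-Whitney test, which gives no error for a fold change, DESeq2 1.42.0, limma-voom 3.58.1, no TMM, other filters and leaving out each mouse. Mann-Whitney on TMM-scaled values and leave-outs in the 5 other tables were added after the data were seen. The fits were tested on simulated data.

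Mouse numbers in the labels pair the libraries of a liver (deviations correlated at 0.59 to 0.74 in 9 mice and at 0.25 in UNT_9584), so the platform term has the mouse as a block. Sequences came from the Ensembl annotation on NCBIM37 and RefSeq promoters on GRCm38.p6, where all 7 symbols matched. Protein-coding transcripts were compared with BLAST+ 2.17.0.

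The members and lists were chosen with earlier results of these data known. Named partners are the direct partners of caspases and up to 3 called genes per list with the largest change and a mean of at least 10 reads. Named markers have the highest mean count of their list, and no lymphocyte marker is named. Exceptions are Cxcr2, Mmp8, Retnlg, Ngp, Ly6g and Camp, which are named for their few or absent reads in untreated mice.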

Additional observations from a re-analysis of the deposited data

Results flagged for a closer look

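Each group of 5 mice was searched for a library far from the others in its deposited reads, for 7 caspases in 6 tables (84 groups, by Dixon's 95% critical value of 0.71, which chance passes in about 1 of 20 groups). In 3 groups 1 mouse stood apart. Casp2 had 55 reads in treated mouse ILB_9579 in the Illumina STAR + Bowtie2 data, against 74 to 75 in the other treated mice. Casp2 had 103 reads in untreated mouse UNT_9574 in the Ion Torrent GSNAP data, against 56 to 68 in the others, and without this mouse its log2 fold change there went from -0.12 to 0.023. Casp9 had 297 reads in untreated mouse UNT_9576 in the Illumina GSNAP data, against 351 to 370 in the others, and still lay above every treated mouse. No caspase had a platform-by-treatment term that passed the test.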

How the results depend on the processing

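Casp9 remained called lower and Casp4 higher under all 13 alternatives (5 other tables, 8 other tests, scalings and filters), at -1.63 to -1.32 and 0.96 to 1.33, with edgeR, DESeq2, limma-voom or Mann-Whitney adjusted p of at most 0.0328 and 0.0355. Without 1 mouse each, in the main table, their ranges were -1.51 to -1.41 and 0.97 to 1.29, and the other ranges were -0.62 to -0.44 (Casp1), 0.03 to 0.11 (Casp2), -0.56 to -0.33 (Casp6), 0.00 to 0.14 (Casp8) and -0.44 to -0.13 (Casp12). Caspases called higher numbered 1 in the main table, 2 in Ion Torrent STAR, and 1 without any 1 mouse. Those called lower numbered 1 in the main table and 1 to 2 without a mouse. They numbered 2 in Illumina GSNAP and the 3 Ion Torrent tables, 3 in Illumina STAR + Bowtie2, 2 with either Mann-Whitney test, DESeq2, limma-voom, the filter of 5 reads in 5 libraries of the table or of 20 reads, and 3 without TMM. The additional calls were Casp1 and Casp6. Of all genes tested, 20.3% to 23.7% were called higher and 21.8% to 24.4% lower over the 6 tables. The shares higher and lower were 13.8% and 24.3% with Mann-Whitney on deposited counts, 20.3% and 19.3% on TMM-scaled values, 24.7% and 24.7% with DESeq2, 23.3% and 22.9% with limma-voom, 17.6% and 27.8% without TMM, 26.9% and 27.2% with the filter of 5 reads in the table and 29.4% and 29.4% with that of 20.

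Casp1 was called with Mann-Whitney on deposited counts (-0.70, adjusted p = 0.0355) or on TMM-scaled values (-0.52, 0.0238), limma-voom (-0.51, 0.0185), no TMM (-0.65, 0.0335), Illumina GSNAP (-0.80) and Illumina STAR + Bowtie2 (-0.67), and had too few reads for the filter of 20. Casp6 was called with DESeq2 (-0.47, 0.0413), no TMM (-0.59, 0.0162), the filters of 5 (-0.47, 0.0498) and 20 reads (-0.47, 0.0472), Illumina STAR + Bowtie2 (-0.49), the Ion Torrent tables (-0.60, -0.55 and -0.54), and without UNT_9575, UNT_9576 or ILB_9579. Casp8 was called in Ion Torrent STAR (0.28), and reversed with Mann-Whitney on deposited counts (-0.10) and without TMM (-0.052). Casp2 reversed in Ion Torrent STAR (-0.29), GSNAP (-0.12) and STAR + Bowtie2 (-0.20), with Mann-Whitney on deposited counts (-0.10) and without TMM (-0.050). Casp12 reversed in Ion Torrent GSNAP (0.15) and STAR + Bowtie2 (0.044). Over genes averaging 10 reads or more, the median log2 difference was -0.12 without TMM and 0.0046 with it. Ion Torrent STAR, which called 20.3% of all genes higher and 21.8% lower, called 5 genes higher and 3 lower in the inflammasome list (4 and 6 in Illumina STAR), 8 and 2 among death receptors (7 and 2), 2 and 1 in the mitochondrial list (4 and 1), 2 and 1 among inhibitors (2 and 2), 2 and 3 among substrates (2 and 3) and none of the PIDDosome genes (0 and 1). Among cell type markers the total called, higher and lower together, moved by over 1.5 times for lymphocytes alone. There 1 was lower in Illumina STAR, 3 in the other Illumina tables and 2 in the Ion Torrent tables. By direction, Kupffer cell and macrophage markers called higher went from 2 in Illumina STAR to 1 in some tables. These were Illumina STAR + Bowtie2, Ion Torrent GSNAP and Ion Torrent STAR + Bowtie2. The causes of these changes were not tested.

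In the platform-by-treatment term, the fit with no replicate block (no pairing by mouse) called none of the 7, with Casp1 at 0.14, Casp2 at -0.35, Casp4 at -0.10, Casp6 at -0.12, Casp8 at 0.22, Casp9 at 0.10 and Casp12 at 0.25, the same directions as with the block. Casp4 reversed with STAR + Bowtie2 (0.065), without ILB_9579 (0.065) and without UNT_9575 (0.084), and no other alternative turned a direction or gave a call. Depth limits Casp1, Casp4 and Casp12 most, with 8 to 35 reads per Illumina STAR library.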
